A study of Sus scrofa with 6 samples.

Results

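Thymus was compared with lymph node and spleen in wild-type pigs, littermates of RAG2 biallelic knockout animals, all sampled at 3 months of age. The 3 wild-type libraries, 1 per organ, were taken out of the 6 of the study by their genotype label, and the 3 knockout libraries enter no comparison here. Neither a transgene nor a treatment is named for the wild-type group. The labels do not say whether the 3 organs came from 1 animal, and the lymph node site is not given. Each library was made from total RNA of unsorted tissue. With 1 library per organ there is no replicate check and no test: a difference between organs cannot be told apart from one between animals or tissue pieces.

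The thymus is where T cells are made. Immature thymocytes enter from the blood, rearrange their T-cell receptor genes with the RAG recombinase, divide after the pre-T-cell receptor signals, pass through a stage that carries both CD4 and CD8, and are selected on an epithelial network. Lymph node and spleen hold mature lymphocytes. B-cell follicles, macrophages and specialised vessels shape both, and the red pulp of the spleen filters blood.

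The tables cover 4122 genes, not the whole gene set of the pig, and 1922562 to 2541724 fragments (sequenced RNA pieces) fell on them per wild-type library. A level is given in CPM, the fragments of a gene divided by the fragments on all listed genes of the same library and scaled as counts per 1000000, so levels of 1 gene can be set side by side between organs but not levels of different genes. The organs' tables were made separately by the authors, so every comparison between organs also compares tables. A gene is called higher or lower in thymus where the log2 ratio, with 1 CPM added to each level, is at least 1 in size and of the same sign against both organs. Folds carry no added CPM, and the range in brackets is a 95% Clopper-Pearson interval that covers counting error only. Of the listed genes 2771 had at least 10 fragments in 1 or more of the 3 libraries and are called measured. In a whole tissue, fewer cells of a type and less RNA per cell cannot be told apart, and the part of such differences in any single result was not tested.

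Thymus stood apart in both directions. It was higher than both organs for 292 measured genes, 10.5%, and lower than both for 562, 20.3%. Against lymph node alone 12.3% were higher and 26.4% lower, and against spleen alone 18.9% were higher and 27.4% lower. Opposite calls were few: 9 genes (0.325%) were higher than lymph node and lower than spleen, and 24 (0.866%) the reverse. The median log2 ratio of all measured genes was -0.08 against lymph node and -0.0026 against spleen. In the deposited FPKM tables (fragments corrected for transcript length and library size), with genes of at least 1 FPKM, the split was 494 higher and 468 lower, and the median ratio moved up by 0.31 against lymph node and 0.23 against spleen. The excess of lower over higher genes was thus not seen on the FPKM scale. The recombinase was highest in the library named thymus, the lymphatic factor PROX1 in that named lymph node and beta-globin, a red cell gene, in that named spleen.

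**Figure D1:**
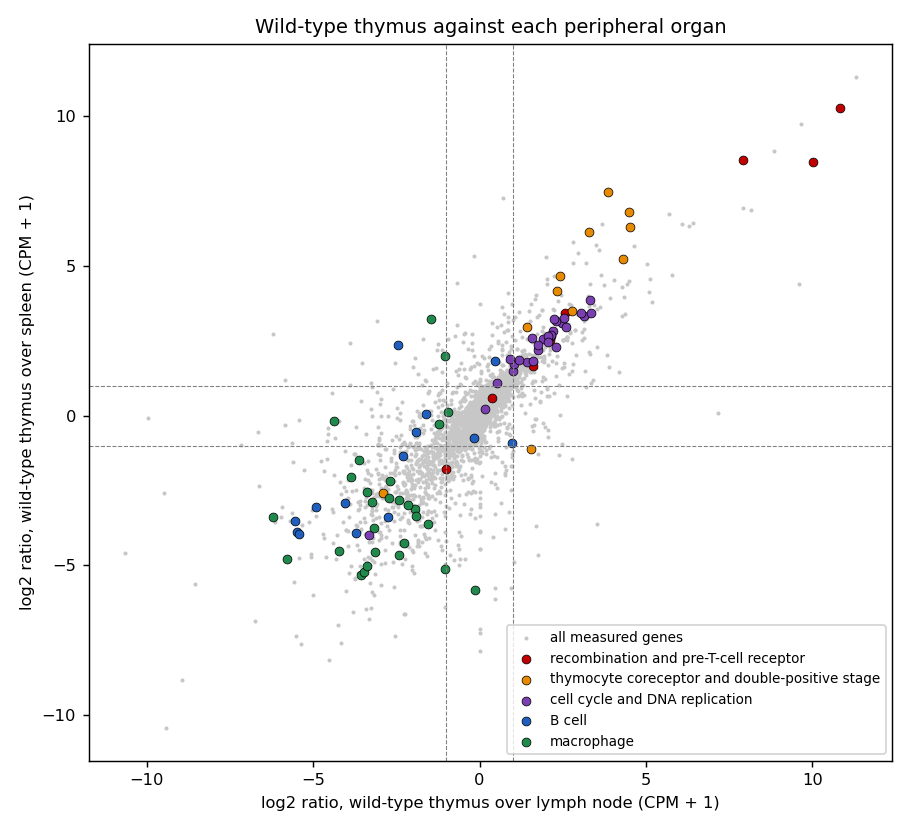
Each point is 1 measured gene, with its log2 ratio of thymus over lymph node on the x axis and over spleen on the y axis (CPM + 1, wild type), and the dashed lines mark the size needed for a call. Recombination, double-positive stage and most cell cycle genes lie at the upper right, macrophage and B-cell genes mostly at the lower left, and 3 recombination genes reach log2 ratios from 7.92 to 10.83.

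Genes of receptor recombination and of the pre-T-cell receptor were higher in thymus for 6 of 8 measured members (75%, against 10.5% of all measured genes), with median log2 ratios of 2.34 and 2.98 against lymph node and spleen, the order kept for all pairs of ratios. RAG1, the catalytic subunit of the recombinase, is listed as RAG-1 (chromosome 2, 24565447 to 24573853 in Sscrofa11.1) and counted 31145 fragments in thymus, 11 in lymph node and 19 in spleen. It was 2142-fold (1197 to 4291) higher than in lymph node and 1345-fold (861 to 2233) higher than in spleen. Its neighbour RAG2 (chromosome 2, 24547605 to 24553944), the second recombinase subunit, counted 2609 fragments in thymus, 0 in lymph node and 4 in spleen. Both genes of the recombinase were thus abundant in thymus and close to 0 in the other organs, RAG2 being at least 658-fold higher than in lymph node, set at a floor of 3 fragments, and 535-fold (209 to 1965) higher than in spleen. PTCRA (chromosome 7, 38006074 to 38012193), the invariant alpha chain of the pre-T-cell receptor, counted 933 fragments in thymus, 1 in lymph node and 0 in spleen. That is 706-fold (126 to 27904) above lymph node, from a single fragment there, and at least 255-fold above spleen.

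The other called members were DNA-bending and repair factors. HMGB2, a chromatin protein that assists RAG binding, stood at 2965 CPM in thymus, 501 in lymph node and 274 in spleen, 5.92-fold (5.54 to 6.34) and 10.8-fold (9.94 to 11.8) higher. Its relative HMGB1 stood at 9983 CPM in thymus, 2309.9 in lymph node and 1738 in spleen. DCLRE1C, the Artemis nuclease that opens coding-end hairpins, was at 251, 81.7 and 78.2 CPM in the same order of organs. These 3 genes are expressed well outside the thymus too, and their folds are far under those of the recombinase. ATM, the kinase that senses double-strand breaks, was the 1 lower member, at 168 CPM in thymus, 339 in lymph node and 585 in spleen, with log2 ratios of -1.01 and -1.80 that lie close to the size needed for a call against lymph node. XRCC6, the Ku70 end-binding protein, was not called.

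Coreceptors and surface molecules of the double-positive stage were higher for 9 of 11 measured members (81.8%), with medians of 2.79 and 4.64. CD8B, the beta chain of the CD8 coreceptor, stood at 1840.5 CPM in thymus, 127 in lymph node and 9.59 in spleen, 14.5-fold (12.7 to 16.6) and 192-fold (124 to 314) higher. CD8A stood at 1281, 239.8 and 50.4 CPM and CD4, the coreceptor for class II recognition, at 1259.8, 251 and 70.5 CPM in thymus, lymph node and spleen. All 3 coreceptor chains had the order thymus, lymph node, spleen. Per length, in thymus, CD8B had 1118 FPKM, CD8A 534 FPKM and CD4 412 FPKM. CCR9, the receptor for the chemokine CCL25, stood at 609 CPM in thymus, 61.4 in lymph node and 7.67 in spleen.

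The lipid-presenting CD1 molecules, which cortical thymocytes carry, followed the same order. CD1A, listed as CD1.1, stood at 1974 CPM in thymus, 85.8 in lymph node and 24.5 in spleen and was 23-fold (19.7 to 27) and 80.7-fold (61.3 to 109) higher. PCD1E (CD1E) stood at 694, 29.6 and 5.28 CPM and PCD1B at 380.1, 18.2 and 9.11 CPM in thymus, lymph node and spleen. CD1D, which presents lipids to NKT cells, was at 2684, 388 and 237 CPM. The CD1 genes lie together on chromosome 4 and resemble each other, and how the authors' counting split shared fragments is not given in the sources used here. CD2, an adhesion receptor of T cells, was called with smaller ratios, at log2 1.44 and 2.97. CD38, an ectoenzyme of activated lymphocytes, went the other way at 64.1 CPM in thymus, 480.1 in lymph node and 391 in spleen, 7.49-fold (6.33 to 8.90) below lymph node and 6.10-fold (5.15 to 7.27) below spleen.

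The T-cell receptor complex and its signalling chain were higher for 8 of 13 measured members (61.5%) and lower for none, with medians of 1.63 and 3.13. CD247, the zeta chain, stood at 3535 CPM in thymus, 674 in lymph node and 370.3 in spleen, 5.24-fold (4.95 to 5.56) and 9.55-fold (8.87 to 10.3) higher. LCK, the kinase that phosphorylates these chains, stood at 2179.6, 467 and 185 CPM and CD3E at 2136, 467 and 235 CPM. CD3D and CD3G, the other CD3 chains, had log2 ratios of 1.78 and 3.36 and of 1.86 and 3.53. The chains of the receptor thus moved together, and each exceeded lymph node by less than it exceeded spleen. SH2D1A, listed as LOC780420 and coding for the SAP adaptor, had the largest ratios of the list, at 190.0 CPM in thymus, 18.2 in lymph node and 8.15 in spleen. CD5, a negative regulator of receptor signals, was higher than spleen only, at 773 CPM in thymus, 429.6 in lymph node and 87.3 in spleen, and the kinases FYN and CSK were not called.

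Among transcription factors of the T lineage 4 of 11 measured members were higher and 2 lower (36.4 and 18.2%, against 10.5 and 20.3% of all measured genes). The lower share is near that of all genes, and the lower members are given as single genes. LEF1, a nuclear effector of Wnt signals in thymocytes, stood at 3574 CPM in thymus, 462 in lymph node and 83 in spleen, 7.73-fold (7.21 to 8.29) and 43.1-fold (37.1 to 50.4) higher. BCL11B, which fixes commitment to the T lineage, stood at 616, 129 and 23.5 CPM, and GATA3, a factor of early T-cell and CD4 development, at 123, 21.8 and 6.72 CPM. NFATC2 and ID1 were lower. NFATC2, a calcium-driven activation factor, stood at 71.6 CPM in thymus, 417 in lymph node and 289 in spleen, and ID1, an inhibitor of E proteins, at 40.1, 122 and 106 CPM.

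ETS1, counted among the 4 higher members, could not be compared. This T-lineage factor, which mature lymphocytes are known to express as well, is listed at 6428 fragments in thymus, 0 in lymph node and 0 in spleen, and 0 fragments are also listed in the knockout lymph node and spleen against 3699 in the knockout thymus. A difference between organs and one between the separately made tables cannot be told apart here, and no fold is given. CDK4, a kinase that most dividing cells use, is likewise listed at 0 in all 3 wild-type libraries, so a 0 in these tables is not always a gene that is silent.

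Genes of mature T cells did not follow the receptor chains. Of 17 measured members 3 were higher and 5 lower than both organs (17.6 and 29.4%, against 10.5 and 20.3% of all measured genes), with medians of -1.55 and 0.10. Against lymph node alone 13 were lower (26.4% of all measured genes were), and against spleen alone 5 (27.4%). CXCR4, the CXCL12 receptor, stood at 2245 CPM in thymus, 608 in lymph node and 314 in spleen, ICOS, a costimulator, at 594, 184 and 35.5 CPM and CD27, a TNF-receptor costimulator, at 201, 88.4 and 17.3 CPM, and these were the higher members. KLF2, the factor that drives exit from the thymus, stood at 27.1 CPM in thymus, 156 in lymph node and 143 in spleen, 5.75-fold (4.41 to 7.58) and 5.27-fold (4.04 to 6.95) lower. The activation receptor TNFRSF9, listed as LOC100519368, was at 27.9, 163 and 94 CPM. The cytokine IL10 rested on 3, 45 and 46 fragments. The homing receptor CCR7 was lower than in lymph node only, at 129 CPM in thymus, 379 in lymph node and 76.3 in spleen.

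Genes of early blood progenitors were lower for 7 of 9 measured members (77.8%, against 20.3% of all measured genes) and higher for none. HHEX, a homeobox factor of progenitors and B cells, stood at 3.93 CPM in thymus, 124 in lymph node and 82.5 in spleen, with log2 ratios of -4.67 and -4.08. SPI1 (PU.1), a factor of myeloid and B cells, stood at 35.8, 248 and 389 CPM, MEF2C at 34.6, 462 and 197 CPM and GATA2 at 4.72, 57.2 and 20.6 CPM. Most of these factors are also expressed by B cells, myeloid cells or endothelium, whose lists were lower in thymus as well, and the part of those cells was not tested.

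Genes of the cell cycle and DNA replication were the list with the highest share of higher members, 24 of 28 measured (85.7%), with medians of 2.06 and 2.56 and summed levels of 23528, 5316 and 4059 CPM in thymus, lymph node and spleen. STMN1, a microtubule regulator of dividing cells, stood at 4098 CPM in thymus, 404 in lymph node and 379 in spleen, 10.1-fold (9.43 to 10.9) and 10.8-fold (10.1 to 11.6) higher. CDC20, an activator of the anaphase-promoting complex, stood at 847, 84.8 and 57.6 CPM. EZH2, a histone methyltransferase of dividing progenitors, stood at 1015, 123 and 93.1 CPM and the phosphatase CDKN3 at 71.2, 7.28 and 6.24 CPM. Both peripheral organs sat close together for these 4 genes, with thymus well above. TOP2A, listed as TOPOII, the topoisomerase that untangles replicated DNA, stood at 6993 CPM in thymus, 1152 in lymph node and 901 in spleen, and PCNA, the replication clamp, at 1739, 416 and 275 CPM.

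Members of this list that were not higher were few. MKI67, the Ki-67 proliferation antigen, stood at 413 CPM in thymus, 286 in lymph node and 193 in spleen and passed the size needed against spleen only. CDC25B and RFC3 were not called. The D-type cyclins split: CCND3 stood at 335 CPM in thymus, 88.4 in lymph node and 56.6 in spleen and was higher, whereas CCND2 stood at 14.2 CPM in thymus, 149.8 in lymph node and 242 in spleen, 10.6-fold (7.46 to 15.4) and 17.1-fold (12.2 to 24.7) lower.

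Genes of cell death and survival were near or under the shares of all measured genes, with 1 of 21 higher and 4 lower (4.76 and 19%) against 10.5 and 20.3%, and medians of -0.14 and -0.10. The called members are given as single genes. BCL2L1, which codes for the survival protein BCL-XL that double-positive thymocytes depend on, stood at 196 CPM in thymus, 50.5 in lymph node and 48.4 in spleen, 3.89-fold (3.12 to 4.89) and 4.05-fold (3.27 to 5.07) higher. MCL1 and BCL2A1, other survival proteins of the same family, were lower, with log2 ratios of -1.05 and -1.40 and of -1.85 and -1.07. The initiator caspase CASP10 was at 44.9, 135 and 180.4 CPM and the TNF receptor TNFRSF1A at 144, 382 and 456 CPM.

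Thymic epithelial genes split into 8 higher and 5 lower of 14 measured members (57.1 and 35.7%), with medians of 2.22 and 1.51, or 2.40 and 1.81 with counts under 3 fragments set at 3. CCL25 (chromosome 2, 71175066 to 71206950), the chemokine that draws CCR9-bearing progenitors, counted 1160 fragments in thymus, 0 in lymph node and 0 in spleen, at least 292-fold higher than in lymph node and 317-fold higher than in spleen. EPCAM, an epithelial adhesion molecule, counted 717 fragments in thymus, 0 in lymph node and 3 in spleen, at least 181-fold above lymph node and 196-fold (66.8 to 953) above spleen. KRT8, a keratin of cortical epithelium, counted 3993 fragments in thymus, 2 in lymph node and 153 in spleen. These epithelial markers were close to 0 in lymph node, and KRT8 alone had a clear level in spleen, 21.4-fold (18.2 to 25.3) under thymus. The cathepsin listed as CTSL stood at 3849 CPM in thymus, 396 in lymph node and 306 in spleen and LY75 (DEC-205), an endocytic receptor of cortical epithelium and dendritic cells, at 1979.8, 214 and 57.1 CPM. CTSL is also an older name of CTSV, the cathepsin of cortical epithelium in humans, so which of them was counted is uncertain.

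The 5 lower members of the list were CXCL12, CD80, IL7, BMP4 and KITLG. CXCL12, the ligand of CXCR4, stood at 137 CPM in thymus, 937 in lymph node and 805 in spleen, 6.84-fold (6.10 to 7.70) and 5.88-fold (5.24 to 6.62) lower. IL7, the survival cytokine of thymocytes and T cells, counted 26, 85 and 78 fragments in thymus, lymph node and spleen, 4.32-fold (2.76 to 6.99) and 3.66-fold (2.32 to 5.94) lower. BMP4, a stromal growth factor, counted 26, 42 and 70 fragments, and the costimulatory ligand CD80 20, 70 and 127. KITLG rested on 4, 8 and 21 fragments. The receptor IL4R, of the list of lymphocyte growth factors and receptors, was lower as well, at log2 -1.33 and -1.07. FOXN1, PSMB11, PRSS16, AIRE and KRT5 are not among the 17 members of the epithelial list found in these data, so no level is given for them.

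**Figure D2:**
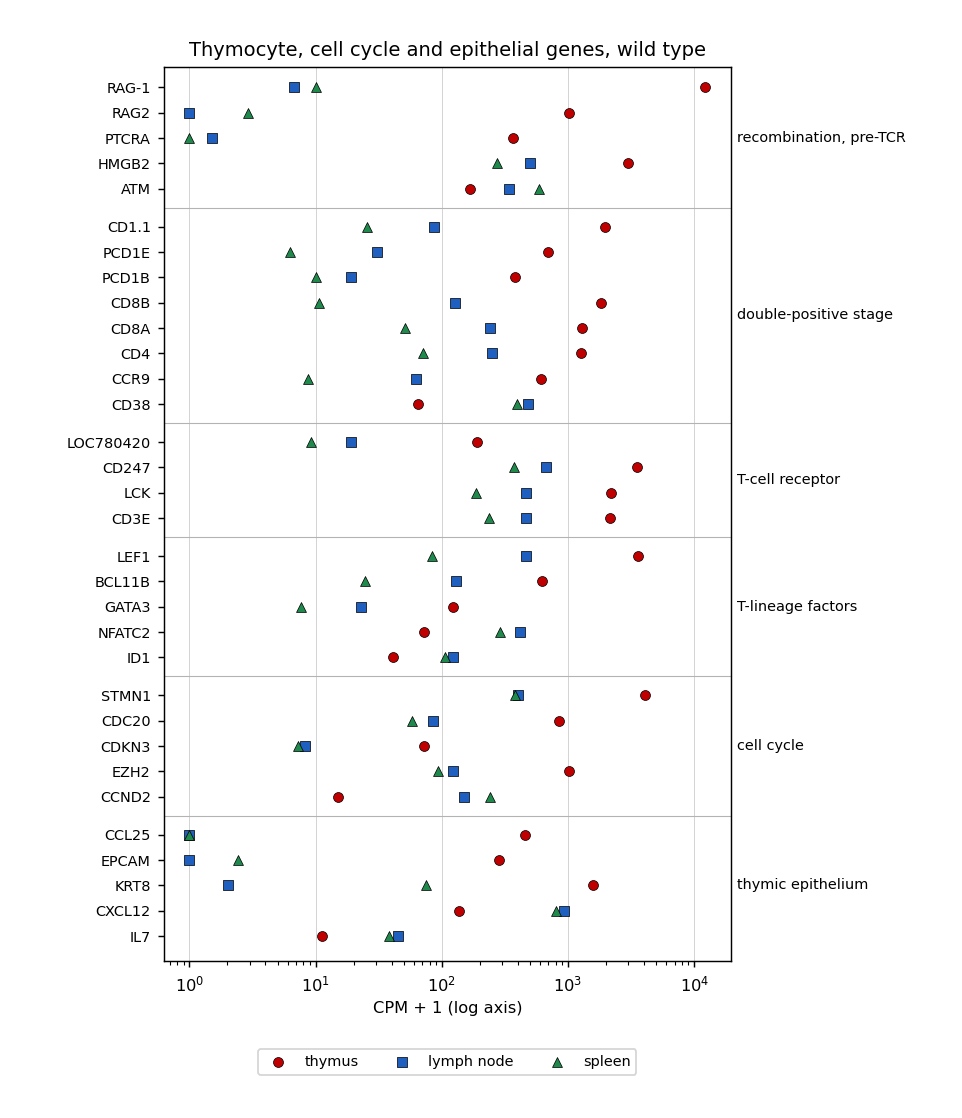
CPM + 1 on a log axis for thymocyte, cell cycle and epithelial genes, with 1 point per wild-type library (red thymus, blue lymph node, green spleen). Thymus lies to the right of both organs for most genes and lies farthest for RAG-1, at 12254, 5.72 and 9.11 CPM in the order thymus, lymph node and spleen. It lies to the left for ATM, CD38, NFATC2, ID1, CCND2, CXCL12 and IL7.

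B-cell genes were lower in thymus for 8 of 14 measured members (57.1%) and higher for none, with medians of -2.60 and -2.14 and summed levels of 729, 5425 and 3853 CPM. MS4A1 (CD20) stood at 26.8 CPM in thymus, 1194 in lymph node and 429.8 in spleen, 44.6-fold (35.1 to 57.7) and 16.1-fold (12.5 to 20.9) lower. CD79B, a signalling chain of the B-cell receptor, stood at 20.1, 984 and 239 CPM. Lymph node was highest for both genes and spleen intermediate. CD180, a Toll-like regulator on B cells, rested on 3, 53 and 67 fragments. CD79A, the partner chain of CD79B, was lower than lymph node but not called against spleen, at 70.8 CPM in thymus, 270.5 in lymph node and 103 in spleen, and CD72 was higher than spleen. In the plasma cell list 3 of 5 measured members were lower (60%, against 20.3% of all measured genes). XBP1, the factor of secretory cells, stood at 139, 368 and 337 CPM and SDC1 (CD138) at 14.2, 44.7 and 34.1 CPM. PIGR, the carrier of polymeric antibody, rested on 1, 34 and 5 fragments, and its interval against spleen (0.682 to 288) includes equal levels.

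Macrophage genes formed the broadest block on the lower side. Of 28 measured members 22 were lower (78.6%) and none higher, with medians of -2.72 and -3.24 and summed levels of 3123, 25281 and 49113 CPM in thymus, lymph node and spleen. SIGLEC-1, the sialoadhesin of sinus and marginal-zone macrophages, stood at 15 CPM in thymus, 874 in lymph node and 434 in spleen, 58.4-fold (42.4 to 82.9) and 29-fold (21 to 41.3) lower. CYBB, listed as GP91-PHOX, the catalytic subunit of the phagocyte oxidase, stood at 37.8, 718 and 882 CPM. C1QA stood at 274 CPM in thymus, 3213 in lymph node and 11062 in spleen and C1QB at 51.1, 580.5 and 1939 CPM, chains of the complement protein C1q that macrophages make. Spleen led for C1q and lymph node for sialoadhesin. MARCO, a scavenger receptor, was highest in lymph node as well, at 24 CPM in thymus, 1834 in lymph node and 259.5 in spleen, and CD68, listed as LOC103158530, stood at 82.2, 369 and 661 CPM. CD36, a fatty acid and scavenger receptor, was at 129, 863 and 876 CPM.

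Some macrophage receptors were spread unevenly between the peripheral organs. MRC1, the mannose receptor, stood at 96.8 CPM in thymus, 2040.0 in lymph node and 109 in spleen, so it was lower in thymus than in lymph node only. ARG1 was listed at 1, 1 and 161 fragments in thymus, lymph node and spleen.

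Complement and acute-phase genes were lower for 15 of 18 measured members (83.3%), the highest share of all lists, and 3 of the 15 are the C1q genes above. C7, a component of the membrane attack complex, stood at 48.8 CPM in thymus, 947 in lymph node and 6292 in spleen, 19.4-fold (16.2 to 23.5) and 129-fold (108 to 155) lower. SERPING1, the C1 inhibitor, stood at 99.1, 1239 and 2234 CPM and C4 at 199, 6543 and 1757 CPM. FCN2, a ficolin of lectin-pathway activation, counted 3, 3015 and 25 fragments and FCN1, a ficolin of monocytes, 6, 88 and 659. The higher members were the acute-phase proteins SAA3, listed as LOC733603, with 280 fragments in thymus, 2 in lymph node and 7 in spleen, and HP (haptoglobin), with 184, 12 and 70.

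Class II molecules of the MHC, which present antigen to CD4 T cells, were lower for 7 of 9 measured members (77.8%) and higher for none. SLA-DRA stood at 1786 CPM in thymus, 7253 in lymph node and 6063 in spleen, 4.06-fold (3.93 to 4.20) and 3.39-fold (3.28 to 3.51) lower, and SLA-DRB1 at 989, 3649 and 2811 CPM. SLA-DMA and SLA-DMB, which load peptides, stood at 94.8, 455 and 569 and at 168, 672 and 829.8 CPM. Their levels in thymus were thus reduced but far from 0. Class I genes were lower for 5 of 15 measured members (33.3%), with log2 ratios of -1.75 and -1.45 for SLA-1, -1.79 and -1.66 for SLA-2 and -1.74 and -1.35 for SLA-5. The SLA class I genes resemble each other and may share fragments. B2M, their light chain, is listed at only 3, 20 and 9 fragments, although nearly every cell makes it, and its call is given without weight.

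Of 11 measured dendritic cell genes 4 were lower than both organs and 1, the shared member CD1.1, was higher (36.4 and 9.09%, against 20.3 and 10.5% of all measured genes), with medians of -0.94 and 0.80 against lymph node and spleen. Against spleen alone 5 were higher and 4 lower. CCL17 and CCL22, chemokines of dendritic cells, were higher than spleen only, CCL17 at 27 fragments in thymus, 41 in lymph node and 2 in spleen and CCL22 at 40, 23 and 2. IRF8, a factor of dendritic and B cells, stood at 14.6 CPM in thymus, 133 in lymph node and 98.3 in spleen, XCR1, the receptor of cross-presenting dendritic cells, at 12.2, 34.8 and 49.9 CPM and CD86, a costimulatory ligand, at 12.2, 119 and 178 CPM. Innate sensors and inflammatory cytokines were lower for 19 of 32 measured members (59.4%). TLR4, the endotoxin receptor, stood at 64.1 CPM in thymus, 569.6 in lymph node and 1524 in spleen and TLR1, a lipopeptide receptor, at 17.3, 315 and 212 CPM. CSF1, the growth factor of macrophages, stood at 5.11, 76.5 and 231 CPM and CASP1, the inflammasome protease, at 3.93, 45.8 and 47 CPM. The sensors and the macrophage growth factor were thus lowest in thymus. The single higher member, NOD1, rested on 29, 0 and 0 fragments, and no fold is given since its FPKM per fragment differs between tables of the study.

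Genes of natural killer and cytotoxic cells were lower for 6 of 12 measured members (50%) and higher for none. TYROBP and FCER1G, signalling adaptors that myeloid cells use too, stood at 45.6 CPM in thymus, 246 in lymph node and 658 in spleen and at 34.6, 184 and 656 CPM. GZMK, a granzyme, counted 2, 22 and 14 fragments and GNLY, listed as NKL, the antimicrobial NK-lysin, 2, 12 and 82. Granulocyte genes were split, with 3 of 13 higher and 5 lower (23.1 and 38.5%, against 10.5 and 20.3% of all measured genes). S100A9 and S100A12, calcium-binding proteins of neutrophils, counted 35 fragments in thymus, 3 in lymph node and 7 in spleen, and 34, 2 and 7, and the antimicrobial protegrin NPG1 15, 0 and 3. MS4A2, the IgE receptor chain of mast cells, was lower at 19, 119 and 72 fragments, as was the leukotriene gene ALOX5AP at 26, 94.7 and 210.1 CPM. The higher neutrophil genes had at most 7 fragments in a peripheral library. They count as measured through the thymus library alone, so their share is not read as a result.

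**Figure D3:**
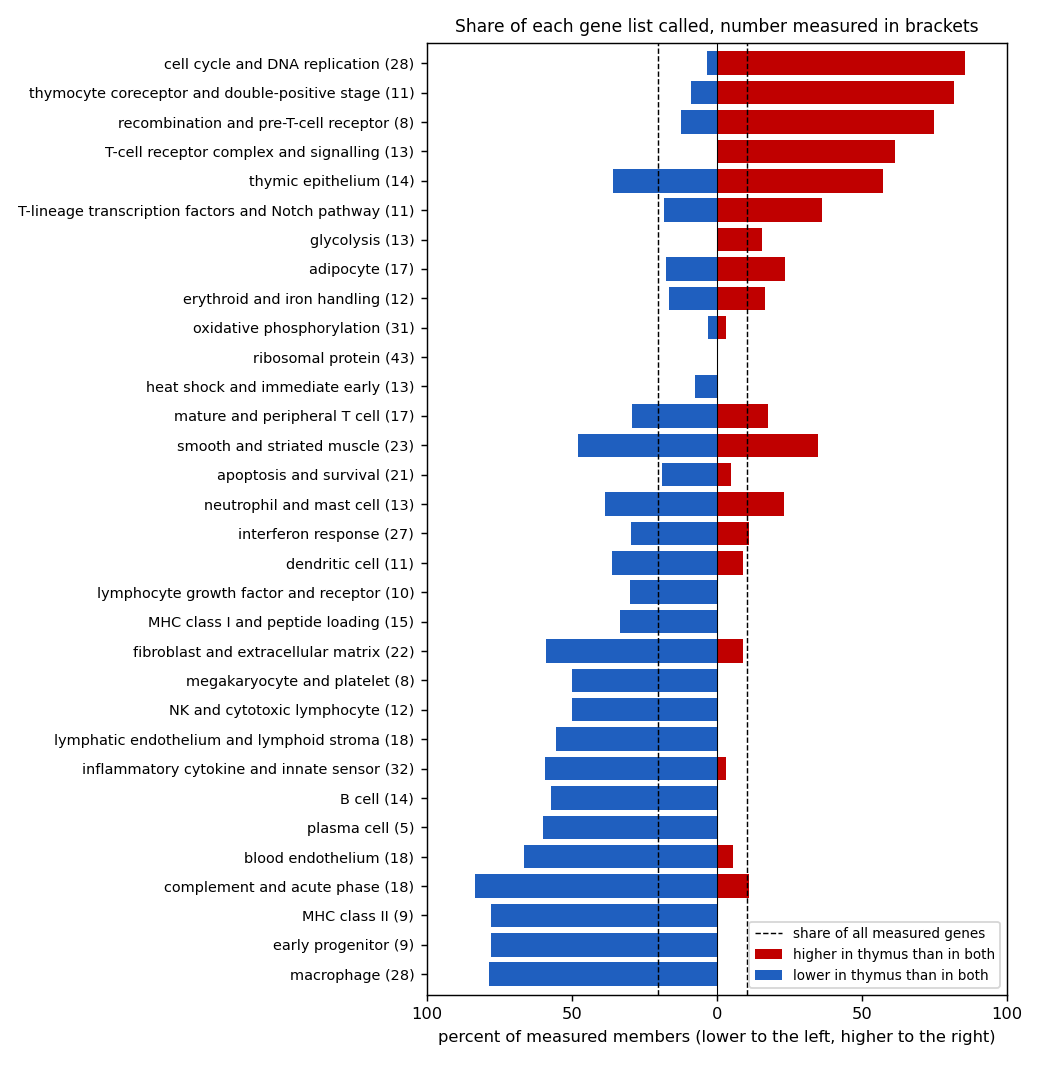
Share of the measured members of each gene list that were higher (red, to the right) or lower (blue, to the left) in wild-type thymus than in both peripheral organs, with the shares of all measured genes, 10.5 and 20.3%, as dashed lines. Cell cycle, double-positive stage and recombination genes lead at the top, and macrophage, progenitor and MHC class II genes stand at the bottom.

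Vessel genes were lower in thymus for 12 of 18 measured members of the blood endothelium list (66.7%) and 10 of 18 of the lymphatic and lymphoid stroma list. NOS3, the endothelial nitric oxide synthase, stood at 3.15 CPM in thymus, 136 in lymph node and 109 in spleen, 43.3-fold (21.7 to 101) and 34.6-fold (17.3 to 81.1) lower. ACKR1, listed as DARC, a chemokine receptor of venules, stood at 7.08, 131 and 112 CPM and CLDN5, a tight-junction protein of endothelium, at 3.15, 212 and 46.5 CPM. VCAM1, an adhesion molecule of stroma, vessels and splenic macrophages, stood at 373 CPM in thymus, 4606 in lymph node and 14609 in spleen, with spleen highest. THBD (thrombomodulin) was the 1 higher member, at 447 CPM in thymus, 152 in lymph node and 135 in spleen, 2.93-fold (2.57 to 3.34) and 3.31-fold (2.90 to 3.79) higher. PECAM1 was lower with lymph node highest, at 215, 3133 and 685 CPM, and PROCR was lower than lymph node only.

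Of the lymphoid stroma genes, CCL21, the chemokine of T zones and lymphatics, counted 4 fragments in thymus, 1843 in lymph node and 259 in spleen, 609-fold (238 to 2238) and 78.9-fold (30.5 to 292) lower in thymus. PROX1, the master factor of lymphatic endothelium, counted 1, 189 and 32 fragments, 249.9-fold (44.3 to 9921) lower than in lymph node. NR2F2, a factor of veins and lymphatics, was highest in spleen, at 8.66 CPM in thymus, 307 in lymph node and 604 in spleen. CCL21 and PROX1 were thus highest in lymph node, and all 3 genes lowest in thymus. Among platelet genes 4 of 8 measured members were lower than both organs (50%, against 20.3% of all measured genes). Against spleen alone all 8 were lower, where 27.4% of all measured genes were. THBS1 (thrombospondin) stood at 89.7 CPM in thymus, 2345 in lymph node and 1391 in spleen, VWF at 71.2, 1123 and 480.1 CPM and SELP (P-selectin) at 7.08, 216 and 22.1 CPM. These 3 are made by endothelium or other cells as well. TUBB1, a platelet tubulin, rested on 0, 2 and 63 fragments.

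Connective tissue genes were lower for 13 of 22 measured members (59.1%, against 20.3% of all measured genes). For 2 of the lower members FPKM per fragment differs between organs. THY1, a fibroblast surface protein that in mice also marks thymocytes, stood at 24 CPM in thymus, 489 in lymph node and 399 in spleen, 20.4-fold (15.7 to 26.8) and 16.6-fold (12.8 to 21.9) lower. CCN2, a matrix-associated growth factor, stood at 13.4, 173 and 104 CPM, and the matrix proteases MMP2 and MMP14 at 107, 690.2 and 686 and at 161, 926 and 1145 CPM. COL5A2 was the exception among collagens, at 6585 CPM in thymus, 1694 in lymph node and 2819.5 in spleen, 3.89-fold (3.74 to 4.04) and 2.34-fold (2.27 to 2.41) higher, whereas COL3A1 was lower at 5124, 19413 and 15686 CPM and COL1A2 at 1953, 5041 and 10489 CPM. MFAP5, a microfibril protein, counted 79, 19 and 3 fragments.

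Muscle genes were called in both directions. Of 23 measured members 8 were higher and 11 lower (34.8 and 47.8%, against 10.5 and 20.3% of all measured genes). All higher members were striated-muscle genes. The lower ones were mixed: CNN1 and MYL9 of smooth muscle, DES and PLN, which striated muscle makes too, and RYR1, a calcium channel of skeletal muscle, were among them. The list's medians were -1.03 and -1.08, or -0.46 and -1.17 with counts under 3 fragments set at 3. MYH1, a fast skeletal myosin, counted 301 fragments in thymus, 1 in lymph node and 1 in spleen, 228-fold (40.6 to 9022) above lymph node from a single fragment there, and MYH7, the slow myosin, counted 81, 0 and 0. MYL2, listed as MLC2V, counted 20, 0 and 0 fragments and the muscle factor MYF6 16, 0 and 0. These 4 transcripts were thus found in the thymus library alone or nearly so, and they count as measured only through it. The share of higher members is therefore not read as a result about the list. ACTA1, the skeletal actin, counted 21, 3 and 9 fragments and was higher than lymph node only. CKM and TNNT3, further skeletal genes, had fewer than 10 fragments in each library. Among the lower members CNN1 (calponin) stood at 2.36 CPM in thymus, 75.4 in lymph node and 959 in spleen. DES (desmin) was at 12.2, 237 and 2527 CPM, MYL9 at 9.05, 96.2 and 856 CPM and PLN (phospholamban) at 0.787, 28.1 and 101 CPM. Spleen was highest for each of these.

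Of 17 measured fat-cell genes 4 were higher and 3 lower (23.5 and 17.6%), against 10.5 and 20.3% of all measured genes, and the higher ones include ACACA, whose call is not kept. The lower share is thus near that of all genes and nothing is read from the list as a whole. ADIPOQ, the fat-cell hormone adiponectin, counted 81 fragments in thymus, 17 in lymph node and 5 in spleen, 3.60-fold (2.12 to 6.49) and 13.3-fold (5.47 to 42) higher, and LPL (lipoprotein lipase) 53, 13 and 2. SCD, a fatty acid desaturase, stood at 999 CPM in thymus, 479 in lymph node and 174 in spleen. PLIN1, the lipid droplet coat, was higher than spleen only, at 32, 16 and 3 fragments. PPARG, the regulator of fat-cell genes that macrophages use too, was lower at 14.6 CPM in thymus, 61.9 in lymph node and 550.2 in spleen, and AGPAT2, an enzyme of lipid synthesis, counted 6, 29 and 65 fragments. ACACA was called higher on counts, at 187, 14 and 6.24 CPM, but reversed in FPKM, at 24.8, 115 and 54.7 FPKM, and is set aside. The fat-cell list summed to 2612, 2679.8 and 2608 CPM in thymus, lymph node and spleen, and LEP (leptin) had fewer than 10 fragments in each library. What part the fat and striated muscle transcripts have in the other contrasts of the thymus library was not tested.

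Of 12 measured genes of red cells and iron handling 2 were higher and 2 lower than both organs (16.7 and 16.7%). These shares are near the 10.5 and 20.3% of all measured genes, and nothing is read from them. Against spleen alone 7 were lower (27.4% of all measured genes were), and the list's medians were -0.0007 and -1.31 against lymph node and spleen. HBB (beta-globin) stood at 345 CPM in thymus, 180.5 in lymph node and 18727 in spleen. The iron store FTL, a ferritin chain that most cells make, stood at 4209, 4666 and 11711 CPM, and FECH, the last enzyme of heme synthesis, at 70.8, 71.3 and 213 CPM. TFRC, the transferrin receptor of dividing and erythroid cells, was higher at 529.6, 264 and 191 CPM, close to the size needed for a call against lymph node. EPOR counted 2, 30 and 102 fragments and TF (transferrin) 1, 11 and 281.

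Beyond the lists, the largest contrasts included genes known from other tissues. FABP6, the bile acid-binding protein of the ileum, counted 3143 fragments in thymus, 1 in lymph node and 1 in spleen, 2377-fold (426 to 93930.5) above lymph node and 2578-fold (462 to 101855) above spleen, each from a single fragment. NEFL, the light neurofilament chain of neurons, counted 605 fragments in thymus, 0 in lymph node and 2 in spleen, and SLC15A1, the intestinal peptide transporter, 216, 0 and 0. RGCC, listed as RGC32, a regulator of the cell cycle, stood at 782 CPM in thymus, 30.7 in lymph node and 14.4 in spleen. Per length the thymus library held 3068 FPKM of FABP6, against 1423 FPKM of CCL25, 58.4 FPKM of NEFL and 28.1 FPKM of SLC15A1. FABP6 was thus at a level per length above that of the epithelial chemokine. LOC396700, which has no name in the annotation, counted 622, 5 and 4 fragments.

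At the other end CLEC4G, a lectin of sinusoidal endothelium, counted a single fragment in thymus, 4271 in lymph node and 67 in spleen, 5646-fold (1013 to 223076) lower than in lymph node, and EFNB2, the ligand ephrin-B2 of arteries, 8, 194 and 225. CASR, the calcium-sensing receptor, counted 0, 80 and 54. The unnamed LOC100152327 and LOC100514340 counted 23, 800 and 4137, and 3, 191 and 741. Thymus was lowest for each of these, and both unnamed genes were highest in spleen.

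Some of the largest lower calls cannot be read as levels. EPAS1, a hypoxia factor of endothelium, is listed at 1, 1837 and 4001 fragments but 109.9, 247 and 523 FPKM, and POGK at 1, 286 and 330 fragments but 104, 52.2 and 58.7 FPKM. PDE4B is listed at 0, 945 and 942 fragments, with 1 fragment in the knockout thymus. For TES, and for JAK2, which was called higher, the FPKM that 1 fragment is worth varied by 2-fold or more from organ to organ. Measured genes that varied so numbered 55, 1.98%, of which 7 were called higher and 11 lower. EPAS1 and POGK are among them and PDE4B is not. The cause was not tested.

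**Figure D4:**
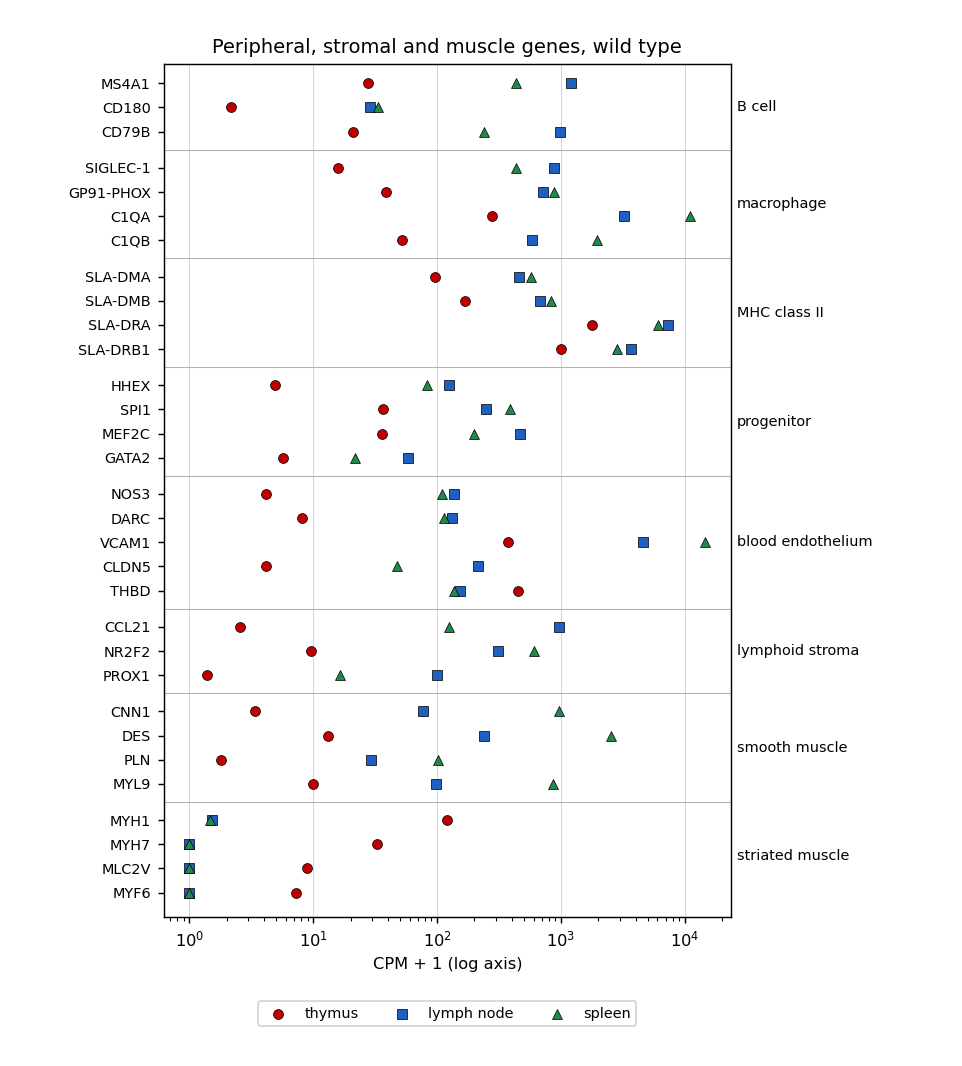
CPM + 1 on a log axis for B-cell, macrophage, MHC class II, progenitor, vessel, stromal and muscle genes, with 1 point per wild-type library (red thymus, blue lymph node, green spleen). Thymus lies to the left of both organs in each group except striated muscle and THBD. Spleen lies to the right of lymph node for the 4 genes in the group labelled smooth muscle.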

How the data were processed

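Lymph node, spleen and thymus of wild-type pigs gave 1 library each. The RNA was isolated on RNeasy columns and stranded libraries of total RNA were made, per the labels' protocols. Per the submitters' processing notes the genome build was Sscrofa11.1 and the tools were STAR 2.7.9a, Cufflinks 2.2.1, Trimmomatic 0.39 and FastQC 0.11.9. The sources used here do not give the annotation, strand setting or treatment of shared fragments, so near-identical, overlapping and antisense genes are uncertain. The authors deposited, for each organ, a table of FPKM values and a table of estimated counts, which per the values were multiplied by 1 factor per library: divided by the most frequent value above 0, 97.0 to 99.0% were whole within 0.02. These quotients were rounded to whole fragments and scaled to the total over the 4122 listed genes, which is not the depth of the library. A floor of 3 fragments equals 1.18 CPM in thymus, 1.56 in lymph node and 1.44 in spleen. PCR copies were not removed by molecular identifiers, so intervals and floors cover counting error only.

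Symbols were matched to the RefSeq annotation of Sscrofa11.1, of which 3721 matched a current symbol, 313 an older name or gene ID and 88 none. The calculation was tested on simulated counts: changes well past the size needed for a call were recovered in both directions. Those just at that size were called far less often when higher than when lower, and unchanged genes there lay slightly to the lower side. Whether higher and lower calls near that size are on an equal footing in the wild-type libraries was not tested. No p-value is given, since each organ has 1 library. The genes and the 32 lists, which share members, were chosen with earlier results of these data known. Named are RAG1, RAG2, PTCRA, up to 4 called members per list and direction with the largest smaller log2 ratio, the 15 highest and 15 lowest called genes with at least 50 fragments in 1 library, and cell type markers; some genes the rule names are not reported here. AQP3, ARG1, C4, CCL17, CCL19, CCL20, CCL22, CCND3, CCR7, CD1D, CD209, CD72, CDC25B, CDK4, COL1A2, COL3A1, CSK, CTSL, DCLRE1C, FECH, FTL, FYN, GAPDH, GCET2, HMGB1, LUM, LY75, MKI67, MMP9, MRC1, NOS2, OAS2, PCNA, PECAM1, POSTN, PROCR, RFC3, RYR1, TOPOII and XRCC6 lie outside this rule and were picked once their values had been seen. Alternatives were edgeR's TMM factors, DESeq2's size factors, centring on the median, the FPKM tables, pseudocounts of 0.1 and 5 CPM, no minimum, a minimum of 50 fragments, a log2 threshold of 2, the counting interval and a total without the most abundant genes. Leaving out genes with differing FPKM per fragment was added after seeing the data. Python 3.11.15, numpy 2.4.6, pandas 2.3.3, scipy 1.17.1, matplotlib 3.10.9, R 4.3.3, edgeR 4.0.16 and DESeq2 1.42.0 were used.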

Additional observations from a re-analysis of the deposited data

Results flagged for a closer look

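The 10 genes below belong to the lists, had at least 50 fragments in 1 library, and differed in opposite directions, thymus lying between the peripheral organs at more than the size needed for a call from each. Both comparisons share the thymus library, and the difference between them was not tested. OAS2, an interferon-induced enzyme, met the same conditions on counts (342, 568 and 101 fragments, log2 ratios of -1.13 and 1.45) but is left out of the 10, since its FPKM per fragment differs between the tables. Most of the 10 were highest in lymph node and lowest in spleen. CD209, a lectin of dendritic cells and sinus macrophages, counted 71 fragments in thymus, 4060 in lymph node and 7 in spleen, with log2 ratios of -6.19 and 2.73 against lymph node and spleen. The chemokine CCL20 counted 20, 143 and 0 fragments (-3.09 and 3.15) and the T-zone chemokine CCL19 106, 783 and 40 (-3.26 and 1.08). GCSAM, listed as GCET2, a germinal-centre B-cell protein, counted 29, 128 and 3 (-2.45 and 2.35), and the macrophage receptor VSIG4 77, 165 and 5 (-1.47 and 3.20). The matrix genes LUM and POSTN had ratios of -1.26 and 2.18 and of -1.62 and 1.14, the protease MMP9 -1.69 and 2.54 and the nitric oxide synthase NOS2 -1.04 and 1.98. AQP3, a water and glycerol channel, was the one with the opposite order, higher than lymph node and lower than spleen, at 269 CPM in thymus, 91.5 in lymph node and 590.0 in spleen (1.54 and -1.13).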

How the results depend on the processing

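The number of genes higher than both organs ranged from 237 to 341 and of those lower from 464 to 595 over the settings listed beforehand, except that the FPKM tables gave 494 higher (468 lower) and a log2 threshold of 2 gave 125 higher and 267 lower. Of the 292 and 562 genes, 286 and 444 were called the same way in the FPKM tables, and 288 and 537 had counting intervals without equal levels. Leaving out genes of differing FPKM per fragment left 285 and 551. At the threshold of 2 the T-cell receptor list fell to 4 higher members, the cell cycle list to 15 and MHC class II to 1 lower member; the counts of recombination, double-positive, epithelial, B-cell, macrophage, complement and blood endothelium members stayed within 1.5-fold under all 12 alternatives. TMM factors moved the median ratio against lymph node by 0.12. In the FPKM tables the muscle median against spleen turned to 0.29, ACACA to -2.17 and -1.11 against lymph node and spleen, POGK to 0.98 and 0.81, and JAK2 against lymph node to -0.0688; the cause was not tested. Over all alternatives 2196 ratios of named genes stayed within their counting interval and 285 left it with the same sign, and 598 list medians stayed within 1.5-fold and 41 did not. No value without a replicate can be given, with 1 library per organ. No paired analysis was possible because each organ has 1 library and the labels carry no replicate numbers. Depth limits the genes listed at 0 to 3 fragments, above all in the striated muscle, neutrophil and platelet lists.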

Other observations

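Few genes of general metabolism and protein synthesis were called against both organs. Of 43 measured ribosomal protein genes none was called against both organs. Against spleen alone 8 were higher, a share near the 18.9% of all measured genes. The list's medians were 0.12 and 0.86 against lymph node and spleen, where all measured genes had -0.08 and -0.0026. The summed level of the ribosomal protein genes was 149846, 140981 and 84835 CPM in thymus, lymph node and spleen. Of 31 measured genes of oxidative phosphorylation 1 was higher, COX7A2 at 504 CPM in thymus, 188 in lymph node and 177 in spleen, and 1 lower, its relative COX7A1 of heart and muscle at 8.26, 42.1 and 20.1 CPM, with medians of 0.45 and 0.53. In glycolysis 2 of 13 were higher (15.4%, near the 10.5% of all measured genes), and nothing is read from that list as a whole. SLC16A1, the lactate carrier MCT1, stood at 741 CPM in thymus, 112 in lymph node and 107 in spleen, 6.59-fold (5.73 to 7.63) and 6.89-fold (6.0 to 7.96) higher, and the aldolase ALDOC at 164, 70.7 and 22.5 CPM. GAPDH was higher than lymph node only, at 3552, 1507 and 1894 CPM.

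Of 27 measured interferon response genes 3 were higher than both organs and 8 lower (29.6%, against 20.3% of all measured genes), with medians of -0.84 and -1.01 against lymph node and spleen. Against spleen alone 14 were lower, where 27.4% of all measured genes were. MX2, an antiviral GTPase, stood at 37 CPM in thymus, 109.7 in lymph node and 348 in spleen and IFIT3 at 23.6, 78 and 166 CPM, with RSAD2 (viperin) at 15.7, 72.3 and 60.0 CPM and the receptor chain IFNGR1 at 214, 765 and 818 CPM. USP18, an inhibitor of interferon signals, was higher at 74.4, 30.2 and 15.8 CPM, and OASL rested on 10, 1 and 0 fragments. For JAK2, the remaining higher member, FPKM per fragment differs between organs, and its ratio against lymph node turned to -0.0688 in the FPKM tables. Among heat shock and immediate early genes DUSP1, a stress-induced phosphatase, was the only called member of 13, at 71.6 CPM in thymus, 164 in lymph node and 168 in spleen.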
